A study of Mus musculus with 19 samples.

Results

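The 5 genes described here are Trp53, which encodes the transcription factor p53, and 4 genes whose products act back on it: Mdm2, Mdm4, Ccng1 and Ppm1d. They were chosen by name, and every array probe whose RefSeq accession belongs to 1 of them was taken, which gave 6 probes of 55681 on the array. The 5 genes were among 20660 that could be named through RefSeq. Mdm4 had a pair of probes and each of the other genes had 1. The Trp53 probe was printed in 2 spots, which were averaged.

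p53 is made continuously and destroyed continuously, and DNA damage raises it mainly by slowing its destruction. The protein then switches on target genes that halt the cell cycle, repair DNA or start apoptosis, and some of those targets encode proteins that shut p53 down again. Polycyclic aromatic hydrocarbons, whose reactive metabolites form bulky DNA adducts, are among the agents known to set off this response.

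Lung RNA came from 18 male Muta Mouse animals, a transgenic strain that carries reporter genes for mutation assays, about 12 weeks old. All were gavaged once a day for 28 days, and lungs were taken 72 h after the last dose. The vehicle controls (D0, 5 mice) received olive oil alone. The exposed mice received 8 such hydrocarbons together in olive oil at 15 (D1, 4 mice), 30 (D2, 5 mice) or 60 (D3, 4 mice) mg/kg/day, expressed as equivalents of benzo[a]pyrene (BaP), a carcinogenic member of this class of compounds. RNA was extracted from random sections of lung, of which the right lobe was kept per the methods of the study, so fewer cells of a type and less RNA per cell cannot be told apart. Each array compared lung RNA in the red channel with a reference RNA pooled from mouse cell lines in the green channel. Values below are log2 ratios of lung over reference, in which a difference of 1 is a doubling, and levels of different probes are not comparable.

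Mouse 35 of D3 had 2 arrays, which were averaged. The number of mouse 23, labelled D2, lies within the run of D1 numbers, and the methods of the study list 1 mouse more for D1 and 1 fewer for D2. That mouse was left in D2. The 19 arrays were on 3 slides that each held all 4 groups, and because arrays of 1 dose always lay in 1 column of the slide, an effect of the column cannot be told apart from that of the dose. The 8 lung marker genes, among them Sftpc (surfactant protein C), Scgb1a1 (club cells) and Ager (flat alveolar cells), were all brighter in lung than in the reference, with mean D0 log2 ratios from 3.04 for Pecam1 to 8.06 for Scgb1a1.

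All 6 probes were well above background in the red and in the green channel in 18 of 18 mice, and none was saturated. All 6 passed the filter on dim signals and were tested with 30999 probes in all. A probe was called when its change was at least 1.5-fold and its adjusted p was at most 0.05. At D3 the calls were Ccng1 and Mdm2, which were higher than in D0, and the brighter Mdm4 probe, which was lower. The Ccng1 probe was also called at D1 and D2, and it stepped up again between D2 and D3. Ppm1d was 1.23-fold to 1.34-fold above D0 on average and was not called at any dose, as no change reached 1.5-fold and the adjusted p at D2 also missed its threshold. Trp53 itself was not called at any dose.

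**Figure D1:**
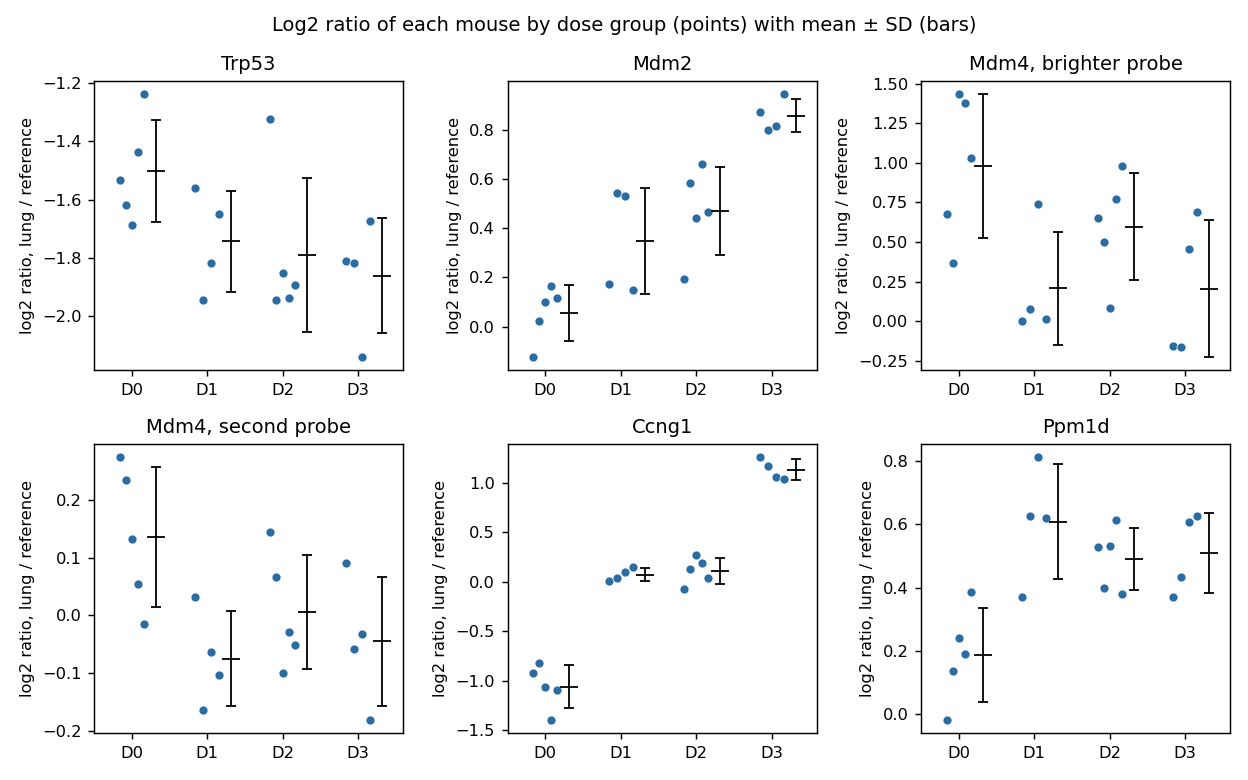
Log2 ratio of lung over reference (vertical axes, each on its own scale) for each mouse in D0, D1, D2 and D3 (points), with the group mean and SD beside them (bars). The D0, D1 and D3 mice of Ccng1 form separate bands, the D3 mice of Mdm2 lie above all other mice, and the groups of Trp53, Ppm1d and both Mdm4 probes overlap.

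The annotated promoters of the 5 genes were read first, because p53 regulates its targets through a known consensus response element, a pair of half-sites of 10 bases each. Windows of 250 bases before to 50 bases after each annotated start were taken from RefSeq (GRCm38.p6), and all 5 genes had 1, with 2 for Mdm4. The 20-base element without a spacer was slid along each window. It reads the same on both strands, so 1 search covered both. The best matches are set out because they separate Ccng1 from the other genes. They are written 5′ to 3′ on the strand of the gene, capitals are bases that fit the consensus and lower case letters are those that do not.
Ccng1 (chr11:40755462-40755481, minus strand): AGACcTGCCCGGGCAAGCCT
Trp53 (chr11:69580284-69580303, plus strand): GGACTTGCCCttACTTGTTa
Mdm4, first window (chr1:133025626-133025645, minus strand): AGGtATGCTgtGGCAAGCCT
Ppm1d (chr11:85311112-85311131, plus strand): GGGCggGggCGAGCTTGCTC
Mdm2 (chr10:117710925-117710944, minus strand): GAACTTGCCTAGcgAccaTT
Mdm4, second window (chr1:133030796-133030815, minus strand): tAACAAtTCTGAGgATtCag

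The Ccng1 window fitted the consensus at 19 of 20 bases, and its downstream half-site was exact. Of 32851 windows searched, 29 (0.0883%) fitted as well or better. The Trp53 window and the first Mdm4 window fitted at 17 bases, as did 6.29% of windows or better. The Ppm1d window fitted at 16 bases (30.2% of windows) and the Mdm2 window at 15 (76.6%), so these best matches were common ones. An exact half-site alone was present in 8.36% of all windows, and in those of Ccng1, Trp53, Ppm1d and Mdm2. These are matches of letters in short windows and say nothing of elements elsewhere in a gene. The whole Ccng1 window, chr11:40755237-40755536 on the minus strand, is shown with the bases that fit the element in capitals. The element begins at position -195 relative to the annotated start.
Ccng1 promoter: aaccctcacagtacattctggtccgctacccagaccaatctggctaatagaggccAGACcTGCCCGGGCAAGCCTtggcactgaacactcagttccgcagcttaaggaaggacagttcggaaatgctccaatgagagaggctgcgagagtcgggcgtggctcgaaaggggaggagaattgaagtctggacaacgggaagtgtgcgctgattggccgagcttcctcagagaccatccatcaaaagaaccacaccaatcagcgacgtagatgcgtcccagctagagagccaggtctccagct

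The 29 windows belonged to 29 genes, of which 8 had a probe tested in lung. Ccng1 set the number of bases asked for, so it is counted apart. Of the other 7 tested genes, the brightest probes of 2, Cdkn1a and Rps27l, were called higher at D3, against 1.80% of 14735 genes tested in the same way, and none was called lower. Cdkn1a, which encodes the cell cycle inhibitor p21, changed by 3.12 at D3 on the log2 scale (limma, adjusted p = 1.49e-10). Rps27l, a ribosomal protein gene known as a p53 target, changed by 1.01 (limma, adjusted p = 7.09e-07). The other tested genes were Bank1, Calhm2, Clec4b1, Mthfd1 and Sptbn4, with changes from -0.42 to 0.13. The element of Sptbn4 fitted at all 20 bases and its change was -0.04 (limma, adjusted p = 0.865). The elements of the 3 called genes and of Sptbn4 are set side by side here, to show that a close fit was found with and without a change in lung.
Ccng1 (chr11:40755462-40755481): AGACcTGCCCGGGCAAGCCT
Cdkn1a (chr17:29090928-29090947): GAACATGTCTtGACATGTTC
Rps27l (chr9:66946296-66946315): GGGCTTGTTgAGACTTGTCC
Sptbn4 (chr7:27396234-27396253): GAGCTAGCCTAGGCTAGTCT

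Trp53 encodes p53 itself, which is controlled mostly at the level of its protein. The log2 ratios of mice 1 to 5 in D0 were -1.53, -1.62, -1.69, -1.44 and -1.24, and those of mice 21, 22, 24 and 25 in D1 were -1.56, -1.95, -1.82 and -1.65. In D2, mice 23, 26, 28, 29 and 30 had -1.32, -1.94, -1.85, -1.94 and -1.89, and in D3, mice 31, 32, 34 and 35 had -1.81, -1.82, -2.14 and -1.67. Each exposed group overlapped D0. Mouse 23 was the highest exposed mouse and the only one of D2 inside the D0 range, while 3 of 4 D3 mice lay below that range.

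The difference from D0 was -0.24 at D1 (95% interval -0.51 to 0.03, adjusted p = 0.321), -0.29 at D2 (-0.54 to -0.03, adjusted p = 0.271) and -0.36 at D3 (-0.63 to -0.09, adjusted p = 0.0815). At D3 the mean was thus 22.0% lower, with no call, and the interval allowed a decrease to 0.646 of the D0 level. Within slides the differences from D0 ran from -0.51 to -0.08, and these are not separate tests, since the 3 doses on a slide share its 1 or 2 D0 arrays and mouse 35 was on 2 slides. The slide was fitted with mouse 35 by its first array alone, and the D3 difference was then -0.37 (limma, adjusted p = 0.0137), still under 1.5-fold. That choice of array without the slide gave -0.44 (limma, adjusted p = 0.0275), and the second array alone gave -0.28 (limma, adjusted p = 0.249). Without mouse 23, D2 had -0.40 (limma, adjusted p = 0.0587) and D3 the same -0.36 (limma, adjusted p = 0.0334), still under 1.5-fold. With single mice left out, mouse 23 among them, the differences ran from -0.30 to -0.17 at D1 (limma, adjusted p = 0.211 to 0.578), from -0.40 to -0.22 at D2 (0.0587 to 0.466) and from -0.42 to -0.26 at D3 (0.0334 to 0.234). With arrays centred on their median they were -0.01 at D1, -0.10 at D2 and -0.24 at D3 (limma, adjusted p = 0.995, 0.949 and 0.87). The 2 arrays of mouse 35 gave -2.00 on the second slide and -1.35 on the third, a gap larger than any difference between groups. The array of mouse 23 also lay on the third slide. The part of the slide in the value of mouse 23 was not tested.

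Mdm2 encodes the ubiquitin ligase that marks p53 for destruction, and it is itself a p53 target, which closes the central loop. In D0 the log2 ratios were -0.12, 0.024, 0.10, 0.17 and 0.12, and in D1 they were 0.17, 0.54, 0.53 and 0.15. In D2 they were 0.19, 0.58, 0.44, 0.66 and 0.46, and in D3 they were 0.87, 0.80, 0.82 and 0.94. The D3 mice lay above all 14 other mice. In D1, mice 22 and 24 stood apart from mice 21 and 25, which were close to the top of the D0 range, and all 5 D2 mice were above D0.

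Mdm2 was 0.80 higher at D3 than in D0 (95% interval 0.59 to 1.02), which is 1.74-fold (adjusted p = 6.61e-05). The difference of 0.41 at D2 (1.33-fold, adjusted p = 0.0284, and 0.0103 to 0.0797 with single mice left out) was under 1.5-fold, and that of 0.29 at D1 (1.22-fold, adjusted p = 0.110) passed neither threshold. The D1 and D2 differences were 36.4% and 51.5% of that at D3. D3 exceeded D1 by 0.51 (0.28 to 0.74, adjusted p = 0.0623) and D2 by 0.39 (0.17 to 0.60, adjusted p = 0.158) with no overlap of mice, but without a call. The linear trend over dose was called, with a fitted rise of 0.78 from D0 to D3 (adjusted p = 6.61e-05), and this call was lost with arrays centred on their median (0.90, limma, adjusted p = 0.347). The D3 call did not hold either with this centring in place of loess (0.99, adjusted p = 0.209), and it held under the other 29 alternatives. Median centring gave 0.63 at D1 and 0.62 at D2 (limma, adjusted p = 0.576 and 0.928).

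**Figure D2:**
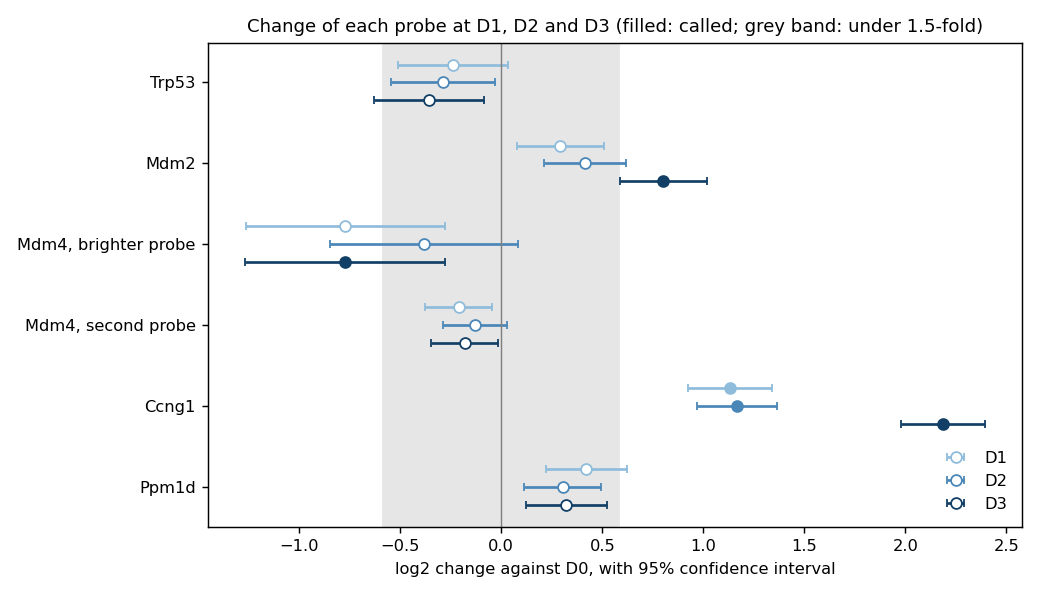
Log2 change of each probe against D0 (horizontal axis) at D1, D2 and D3 with its 95% confidence interval from limma. Filled symbols were called, and the grey band marks changes under 1.5-fold. Ccng1 lies outside the band at all 3 doses and Mdm2 at D3, while the intervals of the brighter Mdm4 probe are the widest.

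Mdm4 (also called Mdmx) encodes a relative of Mdm2 that binds p53 and blocks its activity, mostly without marking it for destruction. The brighter probe had D0 log2 ratios of 0.68, 0.37, 1.43, 1.38 and 1.03, and D1 ratios of 0.0008, 0.0756, 0.74 and 0.0105. In D2 they were 0.65, 0.50, 0.0815, 0.77 and 0.98, and in D3 they were -0.16, -0.16, 0.45 and 0.69. All exposed groups overlapped D0, and only 2 of 4 D3 mice lay below the D0 range. In D1, mouse 24 was far above the other 3.

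The brighter probe was lower than in D0 by a log2 difference of -0.77 at D3 (-1.27 to -0.28, 0.585 of the D0 level, adjusted p = 0.0371) and was called. At D1 the difference was also -0.77 (adjusted p = 0.0675) and at D2 it was -0.38 (adjusted p = 0.460), neither called. The values followed the slide. The D0 mean was 0.52 on the first slide, 1.41 on the second and 1.03 on the third, and the D3 means were -0.16, 0.63 and 0.57. Within slides the differences from D0, which share D0 arrays as for Trp53, ran from -1.02 to -0.23. With the slide in the model and mouse 35 by its first array, the probe was called at D3 (-0.76, adjusted p = 0.00036) and at D1 (-0.68, adjusted p = 0.00232), and D2 had -0.38 (adjusted p = 0.0482). With that array and no slide in the model, limma gave -0.74 at D3 (adjusted p = 0.0504), -0.77 at D1 (0.0768) and -0.38 at D2 (0.482), none called. At D2 the difference was -0.19 with median centring and -0.25 without D2 mouse 28 (limma, adjusted p = 0.937 and 0.663).

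Without the slide in the model and with single mice left out, the D3 difference stayed between -0.93 and -0.65, over 1.5-fold each time, but the adjusted p did not always pass. The call was lost without D0 mouse 3, 4 or 5 (limma, adjusted p = 0.0979, 0.0900 and 0.0645), without D3 mouse 31 or 32 (limma, adjusted p = 0.124 and 0.120), with the first array of mouse 35 alone, in a fit of D0 and D3 alone (0.0580) and with median centring (0.855). At D1 the probe was called without D0 mouse 2 (-0.92, adjusted p = 0.0267) and without D1 mouse 24 (-0.95, adjusted p = 0.0357).

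The second Mdm4 probe, on the same RefSeq accession, was dimmer and was not called at any dose. Its D0 log2 ratios were 0.27, 0.23, 0.13, 0.0544 and -0.0155, and its D3 ratios were 0.0903, -0.0591, -0.0318 and -0.18. The ratios in D1 ran from -0.16 to 0.0311 and in D2 from -0.10 to 0.14, and every exposed group overlapped D0. The differences were -0.21 at D1 (-0.38 to -0.04, adjusted p = 0.137), -0.13 at D2 (-0.29 to 0.03, adjusted p = 0.452) and -0.18 at D3 (-0.35 to -0.01, adjusted p = 0.151). With the background-corrected signals of the scanner software, the D3 difference of this probe was -0.62 and was called (adjusted p = 0.0129), and those at D1 and D2 were -0.53 and -0.35 (limma, adjusted p = 0.0509 and 0.239). Median centring gave -0.08 at D2 (limma, adjusted p = 0.928). Around the group means the 2 probes had a Pearson r of -0.375 over 18 mice, a description of values that share arrays and slides. The D3 call on Mdm4 is thus a call on 1 of its 2 probes.

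**Figure D3:**
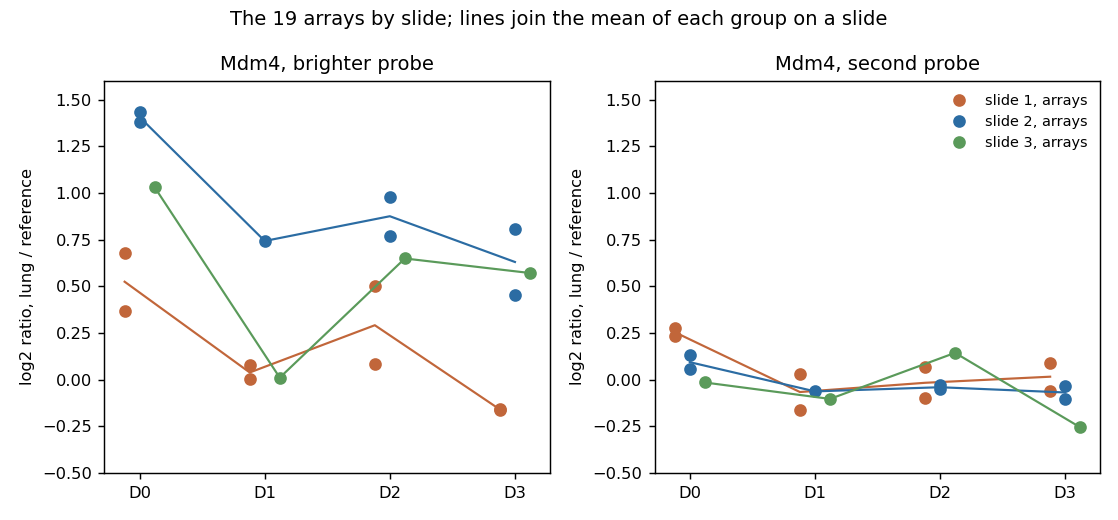
Log2 ratios of both Mdm4 probes on all 19 arrays by dose group and slide (points), with lines joining the group means of each slide. For the brighter probe the second slide lies above the first in every group and the exposed means lie below the D0 mean of their slide, which the 3 doses share, while the second probe varies less and has 1 exposed mean above D0.

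Ccng1 encodes cyclin G1, a p53 target that recruits a phosphatase to Mdm2 and so favours its activity against p53. In D0 the log2 ratios were -0.92, -0.82, -1.06, -1.39 and -1.10. In D1 they were 0.002, 0.0412, 0.10 and 0.14, and in D2 they were -0.0774, 0.13, 0.27, 0.19 and 0.0359. In D3 they were 1.26, 1.17, 1.05 and 1.03. The groups formed 3 bands, since no D0 mouse reached D1 or D2, no mouse of D1 or D2 reached D3, and D1 and D2 overlapped.

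Ccng1 was higher than in D0 by 1.13 at D1 (2.19-fold, adjusted p = 4.16e-06), 1.17 at D2 (2.25-fold, adjusted p = 7.58e-07) and 2.19 at D3 (4.55-fold, 95% interval 3.94 to 5.26, adjusted p = 9.32e-11). By p it ranked 5th, 6th and 2nd among all probes tested at the 3 doses. The log2 differences at D1 and D2 were 51.7% and 53.4% of that at D3. Between D1 and D2 the difference was 0.04 (-0.17 to 0.24, adjusted p = 0.946), so the interval allowed a change to between 0.887 and 1.18 of the D1 level. Between D2 and D3 it was 1.02 (2.03-fold, adjusted p = 0.000113), and between D1 and D3 1.06 (2.08-fold, adjusted p = 0.000151). In both of these comparisons Ccng1 had the smallest p of all 30999 probes. Within slides its difference from D0 was between 0.89 and 2.23, again with shared D0 arrays. The step to D3 was not called under median centring (0.95 over D2 and 0.90 over D1, both adjusted p = 1).

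Ppm1d encodes the phosphatase WIP1, a p53 target that removes activating phosphates from p53 and from the kinases upstream of it. In D0 the log2 ratios were -0.0178, 0.14, 0.24, 0.19 and 0.39, and in D1 they were 0.37, 0.63, 0.81 and 0.62. In D2 they were 0.53, 0.40, 0.53, 0.61 and 0.38, and in D3 they were 0.37, 0.43, 0.61 and 0.63. In each exposed group 1 mouse lay within the D0 range, whose top was mouse 5, and the others lay above it. The differences were 0.42 at D1 (1.34-fold, 1.16 to 1.54, adjusted p = 0.0162), 0.30 at D2 (1.23-fold, 1.08 to 1.41, adjusted p = 0.0900) and 0.32 at D3 (1.25-fold, 1.09 to 1.44, adjusted p = 0.0329). With single mice left out the adjusted p ran from 0.00919 to 0.0579 at D1 and from 0.0193 to 0.108 at D3. With arrays centred on their median the differences were 0.60 at D1, 0.44 at D2 and 0.39 at D3 (limma, adjusted p = 0.576, 0.928 and 0.855), so that D1 was then over 1.5-fold and no adjusted p passed. With D1 and D0 fitted alone the adjusted p at D1 was 0.0545 (limma), and at D2 it was 0.0295 with the slide in the model and 0.0487 with the processed signals. Without these changes of setting, the adjusted p passed at D1 and D3 and the size at no dose. The means of D1, D2 and D3 were 0.61 ± 0.18, 0.49 ± 0.10 and 0.51 ± 0.13 (SD).

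Across probes, 1 of 6 was called higher at D1 (0.594% of all probes tested), 1 at D2 (0.435%) and 2 at D3 (1.21%). Called lower were 0 at D1 (0.465% of all probes), 0 at D2 (0.190%) and 1 at D3 (1.23%), while limma gave 2, 1 and 3 of the 6 lower at an unadjusted p of at most 0.05, against 9.41%, 6.87% and 13.1% of all probes. Between doses, 1 of 6 was called for D3 against D1 (0.145%) and the same probe, Ccng1, for D3 against D2 (0.106%). For D2 against D1, limma called 0 of 6 and 0 of all probes (0%), with 3046 probes at an unadjusted p of at most 0.05. The linear trend over dose was called for Ccng1 and Mdm2 (2 of 6, against 1.53% of probes). The median change of all probes tested was -0.002 at D3, with a median absolute change of 0.13.

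The distance between genes was also followed within each mouse, relative to the D0 mean of that distance. Ccng1 minus Mdm2 was 0.84 ± 0.23 in D1, 0.75 ± 0.13 in D2 and 1.39 ± 0.14 in D3 (SD, n = 4, 5 and 4), and no exposed mouse overlapped D0 (-0.45 to 0.32). Ccng1 minus Trp53 was 2.55 ± 0.21 in D3. Mdm2 minus the brighter Mdm4 probe was 1.06 ± 0.28 in D1, 0.80 ± 0.37 in D2 and 1.57 ± 0.40 in D3, with D0 mice from -0.41 to 0.58. Thus the target genes did not move by equal log2 steps. The distance of Mdm2 to the brighter Mdm4 probe was wider in all mice of D1 and D3 than in any D0 mouse, while D2 overlapped D0. The second Mdm4 probe was not followed in this way.

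**Figure D4:**
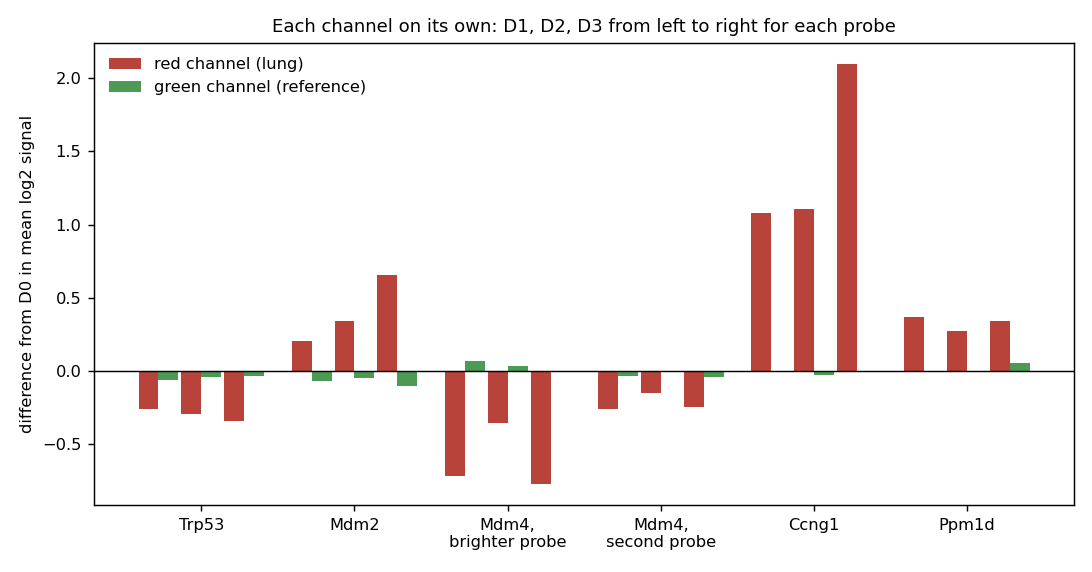
Difference from D0 in mean log2 signal for the red (lung) and the green (reference) channel, each normalized on its own, with bars for D1, D2 and D3 from left to right for each probe. The green bars stay between -0.10 and 0.07, while the red bars reach 2.10 for Ccng1 and -0.77 for the brighter Mdm4 probe.

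Each channel was also read alone, since a ratio can move through the reference. In the red channel Ccng1 was higher than in D0 by 1.08, 1.104 and 2.10 and Mdm2 by 0.21, 0.34 and 0.66 at D1, D2 and D3. In the green channel, where every array held the same reference RNA, the differences of all 6 probes lay between -0.10 (Mdm2 at D3) and 0.07 (the brighter Mdm4 probe at D1). The lower value of Mdm2 in the red channel than in the ratio at D3 was accompanied by that -0.10 in green.

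The genes whose ratios ran most like each leading probe over the 18 mice are given as a description, since these correlations include the dose groups and shared slides. For Ccng1 they were Phlda3 (Pearson r = 0.973), Cdkn1a (0.971), Slc19a2 (0.958), Inka2 (0.956) and Lrrc75b (0.956), and all 5 were called higher at D3. For Mdm2 they were Rnf169 (0.952), Aen (0.946), Celf5 (0.938), Zmat3 (0.936) and Thyn1 (0.914), also all called higher. Genes chosen because they ran with a called probe are likely to be called too, so these calls are no separate result. Phlda3, an inhibitor of Akt signalling, Aen, an apoptosis nuclease, and Zmat3, an RNA-binding protein, are known p53 targets. The brighter Mdm4 probe ran with Rprd1b (0.946), Nktr (0.945), Zfp62 (0.939), Osbpl9 (0.928) and Carmil1 (0.926), of which Nktr and Zfp62 were called lower at D3. Trp53 was nearest to Ppig (0.870), Mpzl1 (0.859), Hsd17b4 (0.819), Prpmp5 (0.805) and Miga2 (0.804). Ppm1d was nearest to Zfyve26 (0.90), Actl6a (0.887), Xpc (0.867), C87436 (0.865) and Gne (0.865). Xpc, a DNA repair gene that recognises bulky adducts, is also on the list of p53 targets described next. None of these 10 was called at D3. Between members, Ccng1 and Mdm2 had r = 0.873 over all mice but -0.0529 around their group means.

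Other p53 targets were taken as a list of 40 genes, of which 39 were tested. By their brightest probes 9 of them were called higher at D1, 12 at D2 and 14 at D3, against 0.882%, 0.692% and 1.80% of all genes, and none was called lower. The list was written with earlier results of these data known, so this contrast is a description and not an independent test. The median change of the 39 was 0.33 at D1, 0.26 at D2 and 0.46 at D3, beside 0.03, 0.02 and 0.03 for all genes. The largest called changes at D3 were those of Gdf15, a stress-induced secreted factor (3.69, adjusted p = 1.82e-10), Cdkn1a (3.12), Phlda3 (2.19) and Aen (1.57). Changes of Ccng1 and Phlda3 at D3 were the same to 2 decimals. Targets that were not called at D3 included Btg2 (0.07), Sesn1 (0.07) and Tigar (0.05), which were picked after their values were seen. Sesn2 of the same list was called higher at D2 and D3 (0.66 and 0.92, limma, adjusted p = 0.000147 and 1.84e-06).

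**Figure D5:**
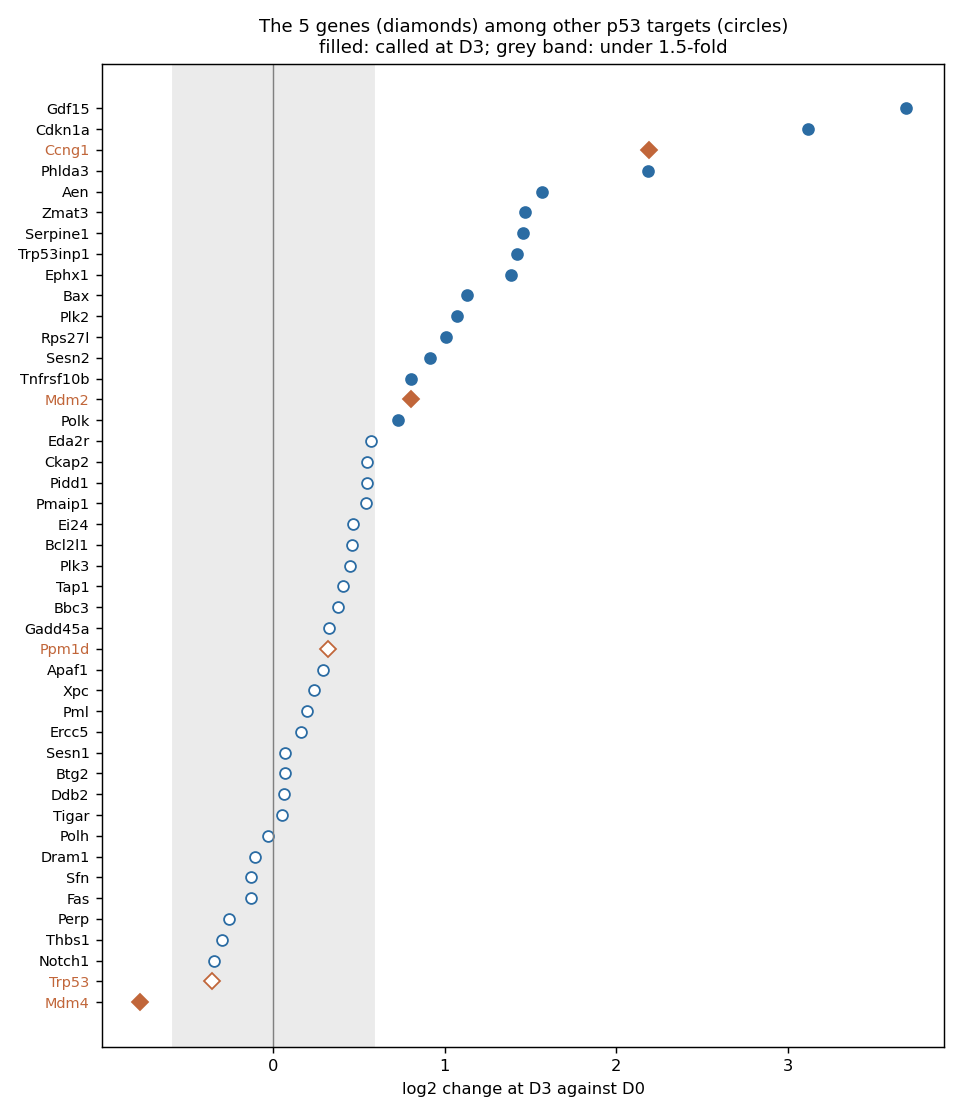
Log2 change at D3 against D0 (horizontal axis) of the leading probes of Trp53, Mdm2, Mdm4, Ccng1 and Ppm1d (diamonds) and of 39 other p53 targets (circles). Filled symbols were called, and the grey band marks changes under 1.5-fold. Ccng1 lies beside Phlda3 and behind Gdf15 and Cdkn1a, and the brighter Mdm4 probe, the only filled symbol below 0, lies lowest.

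The 21 other negative regulators of p53, which include ubiquitin ligases, deacetylases and methyltransferases, were all tested. Of these, Aurka, a mitotic kinase that phosphorylates p53, was called higher at D1 (0.78, adjusted p = 0.00146), Usp2, a deubiquitinase that stabilizes Mdm2, was called higher at D2 (0.73, adjusted p = 0.0284). These single calls stand beside 0.882% and 0.692% of all genes called higher at D1 and D2. None was called at D3 by limma, where 6 of 21 had an unadjusted p of at most 0.05, a share like the 28.6% of all genes. Ppp1r13l (0.27, limma, adjusted p = 0.0196) and Trim24 (0.25, 0.0314) passed the adjusted p at D3 but stayed under 1.5-fold. The median change of the 21 at D3 was 0.14. Of 32 activators and stabilizers of p53, such as Atm, Chek1 and Ep300, 30 were tested and none was called by limma at any dose (11 at an unadjusted p of at most 0.05 at some dose, as were 39.0% of all genes), with a median of -0.04 at D3. Those that passed the adjusted p at D3 under 1.5-fold were Prkdc (0.42, limma, adjusted p = 0.0041), Crebbp (-0.40, 0.00388), Ppp1r13b (-0.31, 0.0316), Npm1 (-0.26, 0.0296) and Rpl23 (-0.23, 0.0479). The 5 relatives of the members, Trp63, Trp73, Ccng2, Ppm1a and Ppm1b, had no call from limma either (3 at an unadjusted p of at most 0.05 at some dose). Trp63 had -0.38 at D3 (limma, adjusted p = 0.00964), under 1.5-fold. Ccng2, the closest relative of Ccng1, had 0.06 at D3 (adjusted p = 0.626).

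Marker genes of other cell types and states were read beside these values, as the mean log2 level of a list relative to D0. The 5 markers of dividing cells (Mki67, Top2a, Ccnb1, Cdc20 and Birc5) were all called higher at D1, 3 at D2 and none at D3, and their mean level per mouse ran from -0.09 to 0.15 in D0, 0.61 to 1.38 in D1, 0.54 to 1.03 in D2 and 0.10 to 0.77 in D3. Aurka moved with this list. The mean of Ppm1d was also highest in D1, but its differences between doses were small and not called. They were -0.12 for D2 against D1 (limma, adjusted p = 0.75) and -0.10 for D3 against D1 (limma, adjusted p = 0.898). Of 4 macrophage and neutrophil markers, S100a8 (1.77) and S100a9 (0.86) were called higher at D3, while Marco (0.94, adjusted p = 0.0745) and Itgax (-0.18, adjusted p = 0.32) were not. Itgax was also below D0 at D1 (-0.26) and at D2 (-0.43, adjusted p = 0.032), under 1.5-fold. The list ran from -0.32 to 0.34 in D0, 0.32 to 0.61 in D1, -0.29 to 0.67 in D2 and 0.57 to 1.37 in D3. Of 4 T and NK cell markers, Gzma was called lower at all 3 doses (-3.07 at D3), while Cd8a (0.45), Cd3e (0.05) and Nkg7 (-0.40) were not called at D3. The mean level of this list ran from -0.49 to 0.43 in D0 and from -1.09 to -0.39 in D3, where the median change of its genes was -0.18. Of the 8 lung markers, Pecam1 (endothelium) was called higher at D1 and D3 (0.66 at D3), and the other 7, with Cldn5 of endothelium among them, had -0.39 to -0.17 at D3 without a call. The median change of the lung list was -0.37 at D1, -0.07 at D2 and -0.32 at D3. None of 3 B cell, 3 heart muscle and 2 red blood cell markers tested was called by limma (1, 1 and 0 at an unadjusted p of at most 0.05 at some dose). The heart list varied between mice from -0.16 to 0.23 in D0, -1.915 to 1.43 in D1, -1.97 to 0.93 in D2 and -1.94 to 0.92 in D3. The part of these cell types in the changes of the 5 genes was not tested.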

How the data were processed

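Lung RNA (Cy5, red) of 18 mice and a common reference (Cy3, green) were hybridised to 19 2-colour Agilent arrays without dye swap, and dye bias was not removed by design. The scanner files as deposited give the intensity of each spot, from the scanner software (release 11.0.1.1 per the file headers, another release than the methods name), not normalized. The deposited series table holds log2 ratios that the authors had normalized, and was used as an alternative (Pearson r with the ratios used here 0.995 to 0.998 per array). Its median per array was between -0.0348 and -0.0173. Direction follows the dyes in the labels.

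Median signals without background subtraction were loess-normalized (span 0.3), without the 3671 control spots and 171 to 323 outlier spots per array of 62976. The spots of a probe were averaged, and of the 55681 probes 55601 had values in all mice. A probe was tested where red was well above background in at least 4 mice of 1 group (30999 probes). Well above background were 54.5% to 64.7% of red spots per array, and the number of arrays limits the precision. Symbols came from RefSeq accessions without versions (21465 of 22765 matched). The tests were run in limma 3.58.1 (R 4.3.3) with 1 model over 4 groups, with Benjamini-Hochberg adjustment over all probes tested. A call needed an adjusted p of at most 0.05 and 1.5-fold. In the fit with the slide as a block, mouse 35 entered by its first array. MAANOVA, used by the study, was not installed. Each mouse is a separate animal per the labels. Intervals are 95% and come from limma. The scripts were tested on simulated data.

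The members and lists (p53 targets, other negative regulators, activators and stabilizers, relatives, and markers of lung, B cells, T and NK cells, macrophages and neutrophils, heart muscle, dividing cells and red blood cells) were written by hand with earlier results of these data known. The leading probe of a gene is the brightest in red. Named genes are the members, the 5 genes with the highest Pearson r with each leading probe, the 4 largest called changes at D3 of each list, and Cdkn1a. Genes that were named beyond this rule, namely those with promoter elements, list members without a call and the called genes of small lists, were chosen after their values were seen. Alternatives are in the closing section. Promoter windows were searched with Python 3.11.15 and numpy 2.4.6.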

Additional observations from a re-analysis of the deposited data

Results flagged for a closer look

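Of 24 sets of values (6 probes in 4 groups), 2 had a mouse far from the others of its group. By its critical value this measure marks about 1 in 20 independent sets by chance, and these sets share mice, arrays and slides. Mouse 23 of D2 had a Trp53 log2 ratio of -1.32, and its gap to the nearest mouse was 0.85 of the range of the group. Mouse 24 of D1 had a ratio of 0.74 with the brighter Mdm4 probe, and its gap was 0.899 of the range. Mouse 24 was the only D1 mouse on the second slide, where all groups had high Mdm4 ratios, and mouse 23 was the only D2 mouse on the third. The part of the slide was not tested.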

How the results depend on the processing

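Results were recomputed under 30 alternatives in all (normalization, signals, filter, slide, mice and arrays left out, and separate fits). The background correction by normexp was run on median signals. Ccng1 kept its direction and its call at D1, D2 and D3 under all 30, with a D3 change between 2.10 and 2.30, and no change of Mdm2, Ppm1d, Trp53 or either Mdm4 probe against D0 changed its sign. With median centring the median change of all probes was 0.17, 0.12 and 0.06 at D1, D2 and D3, against 0.0066, -0.0035 and -0.002 by loess. It called 12, 18 and 97 of all probes against 328, 194 and 754 by loess, of which 100%, 88.9% and 83.5% were higher against 56.1%, 69.6% and 49.6%. With it the number of member probes called was 1 at D3, 0 between doses and 1 for the trend (Ccng1, without Mdm2), and the small differences between D2 and D1 changed sign for Mdm2 (-0.01) and Ccng1 (-0.05), neither called. At D1, 2 probes were called by the red channel alone, by the deposited log2 table and with the slide as a block (mouse 35 by its first array), Ccng1 and the brighter Mdm4 probe each time. Leaving out single mice gave 1 to 2 calls at D1, 1 at D2, 2 to 3 at D3, 1 between doses and 2 for the trend. The scanner's processed signals called 1370 probes at D3 and 4 of the 6 member probes (both Mdm4 probes, Mdm2 and Ccng1), and 639 and 348 probes at D1 and D2. With mouse 23 counted in D1 or left out, 3 member probes were called at D3. No paired analysis was possible because mouse numbers are not shared between groups. The slide, which held all 4 groups, was fitted as a block instead, with mouse 35 by its first array, so that D3 had no array on the third slide. That fit added the D1 call and the trend call (-0.63, adjusted p = 0.0207) of the brighter Mdm4 probe and ended none, while the first array of mouse 35 alone, without the slide, gave a trend of -0.58 (limma, adjusted p = 0.195). The 4 to 5 mice per group limit the precision, and all 6 probes were well above background in both channels.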
